A study of Mus musculus with 18 samples.

Results

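The presynaptic release machinery was followed here as 33 genes, found by symbol among the 56883 rows of a combined table of raw counts. They cover SNARE proteins, synaptotagmins, complexins, synapsins, vesicle membrane proteins, Rab3 proteins, active zone and priming proteins, SNARE recycling factors and endocytic proteins. All 33 had enough reads to be tested in every comparison. The mice carried the S100B-EGFP transgene (B6;D2-Tg(S100B-EGFP)1Wjt/J) in every group, and no group without it was analysed here. The labels disagree on sex, naming both sexes in the design and only males under housing. The injections held vehicle, 10 mg/kg clozapine or 1 mg/kg risperidone and were given intraperitoneally each day for 14 days, from postnatal day 60 to 74, and the mice were killed on day 75. Each treatment had 2 pools of 5 animals' frontal cortices, 1 in each of 2 labelled batches. Every pool was dissociated and passed over antibodies in sequence, which gave a CD45 (microglia) fraction, a Thy1 (neuron) fraction and a HepaCAM (astrocyte) fraction, with endothelial and oligodendrocyte lineage cells depleted on the way. The 6 pools gave 18 libraries. In tests of the drugs, p-values rest on the spread between the 2 pools of a treatment, which were also of different batches. Tests with the pool as a block rest on how differences between fractions varied from pool to pool. Tests of batch within a fraction rest on how the batch difference varied between treatments.

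At a presynaptic terminal, vesicles filled with transmitter are held by synapsins, brought to the active zone by Rab3 and the scaffold proteins, and primed by Munc13 proteins. The SNAREs then pull vesicle and plasma membrane together, complexins clamp the assembled SNAREs, and calcium binding to a synaptotagmin triggers fusion. Nsf and its partner Napb take the spent SNAREs apart, and dynamin, synaptojanin and endophilin retrieve the membrane. These proteins sit in axon terminals, whereas much of their mRNA lies in the cell body.

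Libraries held 4.71 to 13.39 M assigned reads, with a median of 7.44 M. The fractions were enriched and not pure, and their markers were found in every library. Cx3cr1, a microglial chemokine receptor, stood at 450 ± 126 counts per M assigned reads (CPM; SD, n = 6) in microglia fractions, 40.3 ± 23.5 in astrocyte fractions and 20.4 ± 21.3 in neuron fractions. Aqp4, the astrocyte water channel, stood at 83.7 ± 30.6, 338 ± 30.1 and 106 ± 29.3 CPM in that order, and Rbfox3 (NeuN), a neuronal nuclear protein, at 90.6 ± 44.1, 116 ± 28.8 and 248 ± 38.0 CPM. The summed level of 20 pan-neuronal markers, none of them a member, was 2281 to 6160 CPM in microglia fractions, 3740 to 6253 in astrocyte fractions and 7806 to 11994 in neuron fractions. The summed level of 15 oligodendrocyte markers in neuron fractions was 17925 to 28651 CPM in batch 1 and 5855 to 6559 in batch 2. In astrocyte fractions these markers summed to 11349 to 37474 CPM, against 14132 to 21592 CPM for 15 astrocyte markers, so reads of this lineage remained after depletion. No gene of these lists was at 0 in any library.

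The sequence just before the members' start sites was searched for short motifs. No link between these motifs and the members' levels was tested. Promoters of 26 members, 34 in all, were present in a RefSeq table (build GRCm38.p6), and the 250 bases before each start were read on both strands. RE1, the element bound by REST, a repressor of neuronal genes in other cell types, was searched as CAGCACC, a 2-base gap and GGACAGC with at most 2 mismatches in the 14 letters. Only Syn1 held it, 230 bases before its start at chrX:20921118-20921163 on the minus strand, with the matched letters in capitals:
Syn1 RE1: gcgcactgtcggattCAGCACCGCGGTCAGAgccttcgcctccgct
The cyclic AMP response element, searched as TGACGTCA, was found before Syn1 at chrX:20921055-20921092 (minus strand) and before Sh3gl2 at chr4:85205404-85205441 (plus strand), 159 and 37 bases before the start, with its letters in capitals:
Syn1 CRE: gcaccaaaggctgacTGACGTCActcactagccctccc
Sh3gl2 CRE: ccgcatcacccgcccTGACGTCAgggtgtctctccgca
Among all 32851 promoters in the table, 0.624% held the RE1 match and 1.546% the cyclic AMP element, against 2.941% and 5.882% of the members' 34. GC boxes (GGGCGG) stood in 55.882% of the members' promoters and 32.742% of all, while TATA boxes (TATAAA) stood in 5.882% and 12.368%, the former both before Sv2b. The members' promoters had a median of 15.5 CpG sites and 61.2% GC, against 6 sites and 52.4% over all promoters. These matches describe letters in a short window, and most members held neither RE1 nor the cyclic AMP element there.

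Levels were compared between genes per kilobase of exon. In neuron fractions the complexins were highest, with Cplx1 at 305 ± 97.9 CPM per kb (SD, n = 6) and Cplx2 at 285 ± 54.0 CPM per kb, a gap within their spread. The Cplx2 row sums 2 gene identifiers with that symbol, the first of which holds 127110 of its 130215 reads. Snap25, the SNARE of the plasma membrane cleaved by botulinum toxin A, followed at 203 ± 66.0 CPM per kb, and then synapsin Syn1 (163 ± 52.9), the fast calcium sensor Syt1 (161 ± 38.2), synaptophysin Syp (157 ± 50.5), the active zone organiser Rims1 (140.5 ± 44.8) and the vesicle SNARE Vamp2 (123 ± 32.2). Neighbours in this order did not differ beyond their spread. At the other end stood Syn3 (3.56 ± 0.678), Unc13b (3.71 ± 1.07) and Syt2 (3.85 ± 1.81 CPM per kb). The median member was at 48.4 CPM per kb in neuron fractions, 25.4 in astrocyte fractions and 21.1 in microglia fractions. The highest in microglia fractions was Snap25, at 80.8 ± 55.6 CPM per kb, and in astrocyte fractions Cplx1, at 114.3 ± 44.9.

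Ratios within a family showed which paralog each fraction held, on the same per-kilobase scale. Syt1, the sensor of most forebrain synapses, stood above Syt2, its relative in fast inhibitory and hindbrain synapses, by 32.1 to 60.1 times in the 6 neuron fractions, 11.6 to 33.2 times in microglia fractions and 17.6 to 41.2 times in astrocyte fractions. Vamp2 stood above Vamp1 by 12.0 to 19.7 times in neuron fractions, 10.2 to 17.3 in astrocyte fractions and 7.80 to 15.1 in microglia fractions. Of the Munc13 priming factors, Unc13a stood above Unc13b by 8.83 to 16.0 times in neuron fractions and by 4.80 to 7.80 times in microglia fractions, which did not overlap. In astrocyte fractions this ratio was 4.955 to 8.353. The median Rims1 to Rims2 ratio was 3.14 in neuron fractions and 2.03 in microglia fractions, again without overlap between these. Astrocyte fractions, at 1.48 to 2.556, overlapped both. Cplx2 and Cplx1 stood near 1 to 1 everywhere, with medians of 0.961 in microglia, 0.948 in astrocyte and 0.992 in neuron fractions. The Syt1 to Syt11 ratio was 0.545 to 1.01 in astrocyte and 1.34 to 2.01 in neuron fractions, which did not overlap, with microglia fractions across both at 0.841 to 2.13.

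**Figure D1:**
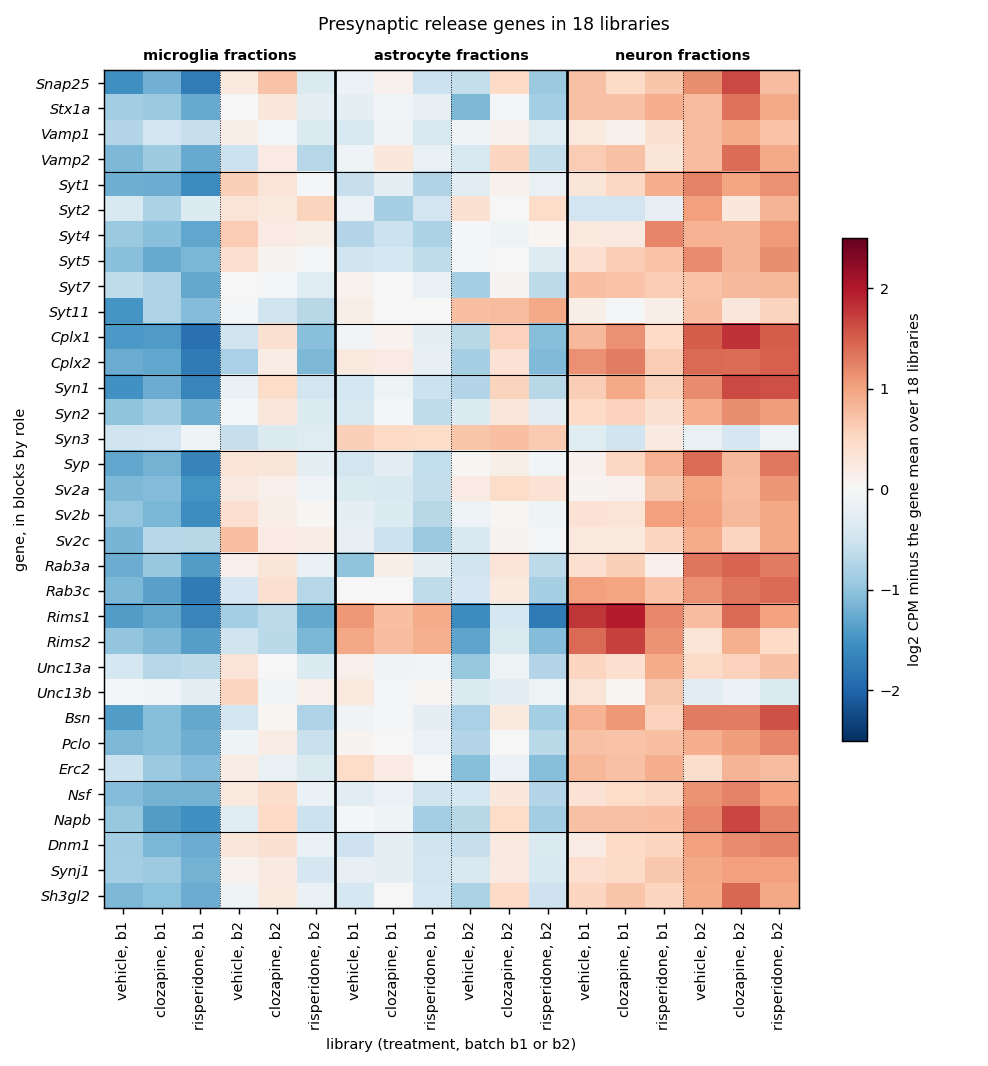
Log2 CPM of each of the 33 genes minus that gene's mean over the 18 libraries, in blocks by role (rows) and by fraction, batch and treatment (columns; b1 and b2 are the batches). Neuron fractions are red for nearly every gene, microglia fractions of batch 1 are blue for most genes, and Rims1 and Rims2 are blue in the batch 2 astrocyte fractions.

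Neuron fractions held more of nearly every release gene than microglia fractions from the same pools. Of 33 members, 32 were higher at an adjusted p under 0.05, the threshold for every call here (edgeR quasi-likelihood test with the pool as a block, Benjamini-Hochberg over all genes), and 19.5% of all genes tested were called higher in this comparison. The median log2 difference was 1.85 over the members and -0.63 over all genes. Each of the 32 was higher in the neuron fraction in all 6 pools, as were 18.9% of all genes tested. For 19 members every CPM value in neuron fractions lay above every value in microglia fractions, as for 5.38% of all genes. Against astrocyte fractions 30 members were higher, with 10.1% of all genes called higher, a median of 1.48 and a median over all genes of -0.46. For this second comparison 28 members were higher in all 6 pools (9.13% of all genes), and for 18 all neuron values lay above all astrocyte values (2.21% of all genes). The same 30 members were higher against both. In bulk RNA, fewer cells of a type and less RNA per cell cannot be told apart. These directions are on the TMM scale. With library totals 30 and 29 members were called higher, where the share of all genes called is not given here. Relative to pan-neuronal reads 21 of 33 differences against microglia and 16 of 33 against astrocyte fractions were below 0.

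The SNAREs that join vesicle and plasma membrane were all called in both comparisons. Snap25 had a lowest, median and highest CPM of 210.5, 428 and 1154 in microglia fractions, 371, 563 and 993 in astrocyte fractions and 988, 1185 and 2206 in neuron fractions, so its microglia and neuron values overlapped in part. Its log2 difference between neuron and microglia fractions was 2.04 (SE 0.37, adjusted p = 0.0001), and against astrocyte fractions it was 1.51 (SE 0.37, adjusted p = 0.0067). The syntaxin Stx1a ran 36.5, 60.5 and 106 CPM in microglia, 40.1, 75.1 and 84.4 in astrocyte and 144, 158 and 224 in neuron fractions. Every Stx1a value in neuron fractions was above every value elsewhere, with log2 differences of 1.92 (SE 0.30) against microglia and 1.68 (SE 0.31) against astrocyte fractions. Vamp2 rose by 2.09 (SE 0.29) against microglia and 1.29 (SE 0.29) against astrocyte fractions, and Vamp1, a paralog with a larger share in spinal and fast-firing neurons, by 1.43 (SE 0.22) and 1.18 (SE 0.22).

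The calcium sensors and the fusion clamp followed, with Syt11 as an exception. Syt1 ran 239, 508 and 1093 CPM in microglia, 430, 603 and 786 in astrocyte and 892, 1406 and 1715 in neuron fractions, where every value lay above those of the astrocyte fractions. Its log2 difference was 1.88 (SE 0.33) against microglia and 1.58 (SE 0.33) against astrocyte fractions. Syt4, Syt5 and Syt7, which work in dense-core or slower release, were higher by 1.63, 1.85 and 1.77 against microglia and by 1.57, 1.57 and 1.36 against astrocyte fractions. Syt2 was the least raised of the called synaptotagmins, by 0.83 (SE 0.22, adjusted p = 0.004) and 0.76 (SE 0.22, adjusted p = 0.019). The complexins had the largest median difference of any role: Cplx2 rose by 2.82 (SE 0.39, adjusted p = 5.7e-06) and Cplx1 by 2.77 (SE 0.37, adjusted p = 3.6e-06) against microglia fractions, and by 1.83 and 1.81 against astrocyte fractions. Cplx1 ran 75.1, 118 and 360 CPM in microglia, 132, 249 and 411 in astrocyte and 389, 695 and 964 in neuron fractions.

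Vesicle proteins were also higher in neuron fractions, with smaller medians than the complexins. Syn1, which tethers the reserve pool of vesicles, ran 77.2, 137 and 333 CPM in microglia, 146, 172 and 356 in astrocyte and 352, 506 and 753 in neuron fractions, with log2 differences of 2.40 (SE 0.33) and 1.80 (SE 0.33) against the other fractions in that order. Syn2 rose by 1.84 and 1.42. Syp, an abundant vesicle membrane protein, ran 137, 282 and 548 CPM in microglia, 285, 388 and 483 in astrocyte and 469, 785 and 1154 in neuron fractions, and its difference against microglia was 1.99 (SE 0.32). A predicted gene, Gm14703, shares 875 exon bases with Syp, and an even spread of its reads over its own exons would put reads equal to 22.6% of Syp's there. The SV2 proteins, which regulate vesicle priming and bind levetiracetam (Sv2a), rose by 1.73 (Sv2a), 1.78 (Sv2b) and 1.34 (Sv2c) against microglia and by 1.11, 1.42 and 1.32 against astrocyte fractions. The vesicle GTPases Rab3a and Rab3c rose by 1.99 and 2.47 against microglia and by 1.55 and 1.77 against astrocyte fractions.

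Active zone and priming genes differed from microglia fractions by 0.52 to 3.02, the widest range of any role in that comparison, and from astrocyte fractions by 0.56 to 1.81, where the synapsins ranged more widely. Rims1, which ties vesicles to calcium channels, had the largest difference of all members against microglia fractions, at 3.02 (SE 0.47, adjusted p = 1.7e-05), and one of 1.73 (SE 0.47, adjusted p = 0.012) against astrocyte fractions. Rims2, its paralog, differed by 2.42 (SE 0.39) and 1.31 (SE 0.39, adjusted p = 0.021). The scaffold Bsn ran 267, 371 and 727 CPM in microglia, 387, 628 and 833 in astrocyte and 1040, 1585 and 2120 in neuron fractions, without overlap between neuron fractions and either of the others. Bsn rose by 2.54 and 1.81, its partner Pclo by 2.09 and 1.52, the scaffold Erc2 by 1.74 and 1.34, and Unc13a by 1.45 and 1.30. The recycling ATPase Nsf rose by 1.81 and 1.46 and Napb by 2.31 and 1.80. The endocytic genes Dnm1, Synj1 and Sh3gl2 rose by 1.78, 1.81 and 1.95 against microglia and by 1.51, 1.43 and 1.51 against astrocyte fractions.

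**Figure D2:**
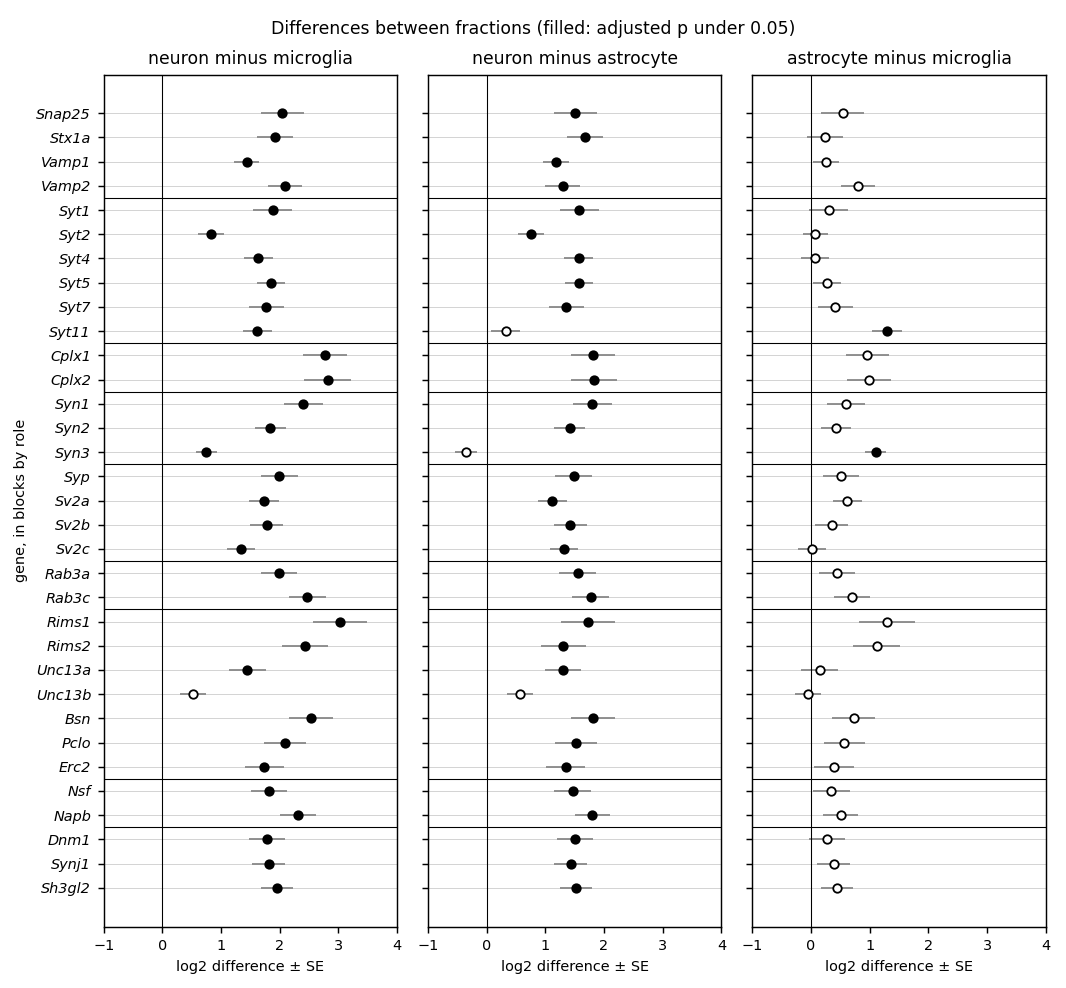
Log2 difference of each of the 33 genes between fractions, with SE bars, for neuron minus microglia, neuron minus astrocyte and astrocyte minus microglia; filled points had an adjusted p under 0.05. Nearly all points are filled and right of 0 in the first 2 comparisons, and Syt11 and Syn3 alone are filled in the last.

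Unc13b (chr4:43058953-43264871 on GRCm39), Syt11 (chr3:88652007-88682471) and Syn3 (chr10:85890989-86334760) were each left uncalled in at least 1 of the 2 comparisons with neuron fractions. Unc13b, a Munc13 used by a subset of cortical synapses, had 66.6, 76.8 and 115 CPM in microglia, 62.5, 74.4 and 93.8 in astrocyte and 61.9, 76.9 and 126 in neuron fractions. Its 3 ranges overlapped almost wholly, and its log2 difference was 0.52 (SE 0.22, adjusted p = 0.059) against microglia and 0.56 (SE 0.22, adjusted p = 0.066) against astrocyte fractions, or -0.02 against microglia with library totals in place of the TMM scaling. Within single batches Unc13b was called higher in neuron than in microglia fractions in batch 1 (0.78, SE 0.22, adjusted p = 0.0055) and higher than in astrocyte fractions in batch 2 (0.84, SE 0.25, adjusted p = 0.0061), while the other two differences were 0.16 against microglia in batch 2 and 0.34 against astrocyte fractions in batch 1, neither called. Syt11, a synaptotagmin that does not bind calcium and that takes part in membrane recycling, had 136, 226 and 363 CPM in microglia, 376, 527 and 729 in astrocyte and 366, 441 and 633 in neuron fractions. Microglia values lay below all others, astrocyte and neuron values overlapped, and Syt11 differed by 1.62 (SE 0.25) between neuron and microglia, by 1.30 (SE 0.25, adjusted p = 0.00048) between astrocyte and microglia, and by 0.32 (SE 0.25, adjusted p = 0.33) between neuron and astrocyte fractions, which was -0.14 with library totals. Per kilobase Syt11 was the third most abundant member in astrocyte fractions, the seventh in microglia and the eleventh in neuron fractions.

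Syn3, the synapsin of developing neurons, was highest in astrocyte fractions, with 69.0, 77.0 and 84.2 CPM there against 33.4, 37.3 and 46.2 in microglia and 35.6, 42.5 and 58.7 in neuron fractions. All 6 astrocyte CPM values lay above all 12 others. On the TMM scale, neuron minus astrocyte ran from -0.791 to 0.312 over the 6 pools. It was above 0 in 2 of them, the risperidone (0.312) and vehicle (0.054) pools of batch 2. The log2 difference was 1.10 (SE 0.18, adjusted p = 9e-05) between astrocyte and microglia, 0.75 (SE 0.18, adjusted p = 0.0023) between neuron and microglia and -0.35 (SE 0.18, adjusted p = 0.16) between neuron and astrocyte fractions. The last was called with RLE scaling (-0.47, adjusted p = 0.032), with DESeq2 (-0.47, adjusted p = 0.0064) and with library totals (-0.83). Timp3, a secreted inhibitor of metalloproteinases, lies within Syn3 and shares 1733 exon bases with it, and counting ignored strand and let a read count for both genes. If Timp3's reads lay evenly along its exons, those in the shared bases would equal 39.4% of Syn3's reads. Timp3 stood at 160 to 194 CPM in astrocyte and 41.1 to 72.7 CPM in microglia fractions. Syn3 minus this expected part left 28.1 to 46.3 CPM in astrocyte, 20.9 to 31.7 in microglia and 22.4 to 43.2 in neuron fractions. Astrocyte and microglia values overlapped after that subtraction, and which gene the shared reads came from was not tested.

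Between astrocyte and microglia fractions Syt11 and Syn3 were the only members called, both higher, where 7.96% of all genes were called higher, and the members' median was 0.44 against -0.01 over all genes. Without the vehicle pool of batch 2 the count was 8, and without the risperidone pool of batch 2 it was 7. The shares of all genes called in those fits are not given here. The 2 batches gave different pictures here. In the 3 pools of batch 1 alone 29 members were higher in astrocyte fractions (13.5% of all genes), with a median of 1.13, and Sv2c, Syt2, Syt4 and Unc13b were the members not called. In the 3 pools of batch 2 alone 2 were higher (3.26% of all genes), Syn3 by 0.90 (SE 0.24, adjusted p = 0.0096) and Syt11 by 1.02 (SE 0.32, adjusted p = 0.029). In those pools 1 was lower (5.56% of all genes), Stx1a by -0.90 (SE 0.27, adjusted p = 0.026), and the median was -0.46. Pool by pool, the members' median was 0.99 to 1.54 in batch 1 and -0.82 to -0.14 in batch 2. In comparisons with neuron fractions the members' medians kept their direction in both batches. Against microglia 31 members were higher in batch 1 (14.6% of all genes) and 32 in batch 2 (16.5%), and against astrocyte fractions 22 in batch 1 (2.15%) and 31 in batch 2 (16.8%). The size against astrocyte fractions differed: pool by pool the members' median was 0.66 to 1.12 in batch 1 and 1.58 to 2.58 in batch 2.

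The members' share of a library followed its pan-neuronal markers closely. The 33 genes took 0.337 to 0.989% of reads in microglia, 0.618 to 1.02% in astrocyte and 1.414 to 1.955% in neuron fractions, while the 20 pan-neuronal markers took 0.228 to 0.616%, 0.374 to 0.625% and 0.781 to 1.199%. Reads of members per pan-neuronal read ran from 1.454 to 1.819 over the 18 libraries. The mean of that ratio was 1.52 ± 0.058 (SD, n = 6) in microglia, 1.67 ± 0.055 in astrocyte and 1.68 ± 0.084 in neuron fractions. Microglia and astrocyte fractions thus carried release gene and neuronal marker reads in nearly the ratio of the neuron fractions, at a lower level. Both sets share each library's depth and composition, so this is a description of the libraries.

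**Figure D3:**
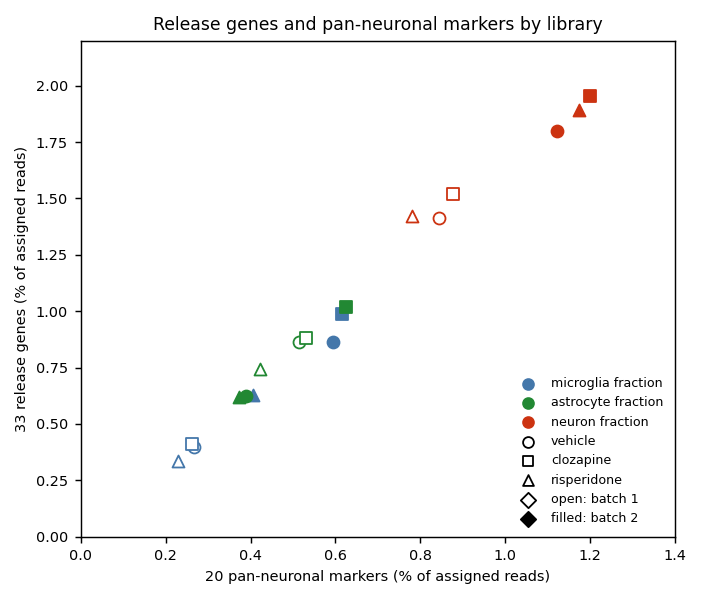
Share of assigned reads of the 33 release genes against that of the 20 pan-neuronal markers, 1 point per library (colour: fraction; shape: treatment; open: batch 1; filled: batch 2). The points lie near 1 line from the microglia fractions of batch 1, at 0.337 to 0.41% release gene reads, to the neuron fractions of batch 2, at 1.798 to 1.955%.

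Scaling each library by its pan-neuronal reads asked which members moved apart from neuronal markers as a whole. On that scale the members' median difference between neuron and microglia fractions was -0.10, where all genes had a median of -2.57, since most other genes fell relative to neuronal markers. Of the members 7 were higher (0.378% of all genes), led by Cplx2 at 0.81 (SE 0.18), Cplx1 at 0.77 (SE 0.18), Rims1 at 1.09 (SE 0.25), Bsn at 0.52 and Rab3c at 0.50. The other two were Syn1 and Rims2. The scale put 6 members lower (85.7% of all genes): Unc13b at -1.41 (SE 0.21), Syn3 at -1.29 (SE 0.25), Syt2 at -1.23 (SE 0.25), Unc13a at -0.51, Sv2c at -0.62 and Vamp1. Between neuron and astrocyte fractions no member was higher and 4 were lower (77.3% of all genes), Syn3 at -1.94 (SE 0.25), Syt11 at -1.25 (SE 0.24), Unc13b at -0.93 (SE 0.21) and Syt2 at -0.81 (SE 0.25). Between astrocyte and microglia fractions Syt11 was higher by 0.87 (SE 0.24, adjusted p = 0.028), with 1.84% of all genes called higher, and Syn3 was not called (0.65, adjusted p = 0.15). The complexins, Rims1, Rims2, Bsn, Rab3c and Syn1 thus moved by more than pan-neuronal markers between microglia and neuron fractions.

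**Figure D4:**
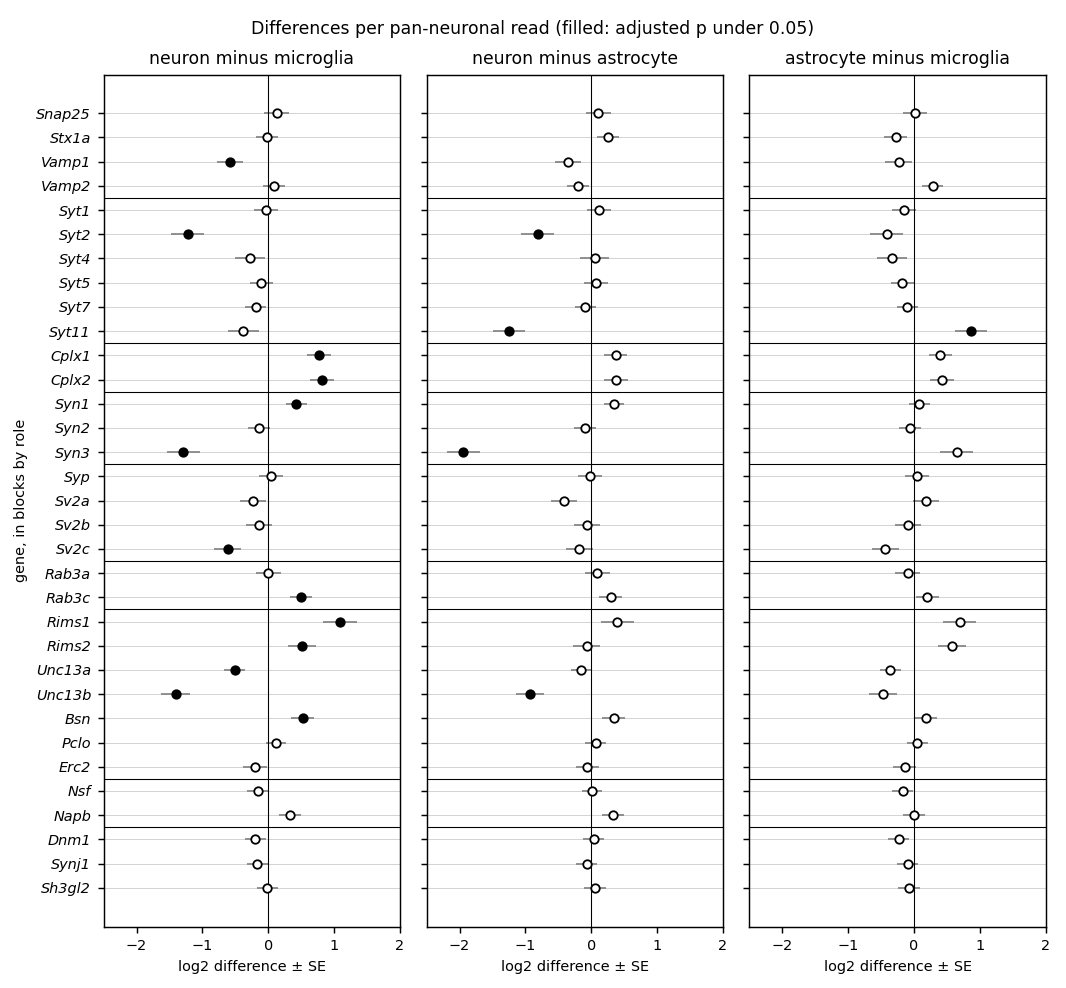
Log2 difference of each of the 33 genes between fractions when libraries are scaled to their summed reads of 20 pan-neuronal markers, with SE bars; filled points had an adjusted p under 0.05. Points gather around 0, with Unc13b, Syn3 and Syt2 far to the left in neuron minus microglia and Cplx1, Cplx2 and Rims1 to the right.

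Differences between the 2 labelled batches passed the test for many members. In microglia fractions 26 of 33 members were higher in batch 2 than in batch 1, where 2.85% of all genes were, with a median of 1.04 against -0.05 over all genes. Snap25 had 243, 306 and 210.5 CPM in batch 1 (vehicle, clozapine, risperidone) and 830, 1154 and 549 in batch 2. Each batch 2 library was above every batch 1 library, and the log2 difference was 1.70 (SE 0.20, adjusted p = 2e-05). Syt1 (1.65), Syp (1.52), Sv2b (1.43), Syt4 (1.42) and Syn1 (1.41) followed. The other 20 called members ran from Nsf and Sv2a (1.33 each), Syt5 (1.32), Rab3a (1.30), Dnm1 (1.26), Sv2c (1.24), Cplx1 (1.2), Rab3c (1.19), Napb (1.18), Sh3gl2 (1.13), Stx1a (1.04) and Syn2 (1.02) to Pclo (0.99), Synj1 (0.96), Syt2 (0.89), Cplx2 (0.86), Bsn (0.85), Syt7 (0.79), Vamp2 (0.75) and Erc2 (0.74). The members not called were Rims1 (0.52), Rims2 (0.39), Syn3 (-0.04), Syt11 (0.69), Unc13a (0.61), Unc13b (0.33) and Vamp1 (0.54). In all 3 treatments 32 members were higher in batch 2 (16.3% of all genes), and for 30 every batch 2 value lay above every batch 1 value (9.54% of all genes). Pan-neuronal markers moved with them: 16 of 20 were called higher in batch 2, and their summed level was 2281 to 2675 CPM in batch 1 and 4055 to 6160 in batch 2. Of 12 GABAergic neuron markers 8 were higher, with a summed level of 201 to 214 CPM in batch 1 and 412.5 to 663 in batch 2, and of 12 glutamatergic markers 6 were higher, at 1163 to 1434 and 1717 to 3367 CPM. Several other lists summed to less in batch 2. Of 15 astrocyte markers 11 were lower (3446 to 5859 CPM, then 2365 to 3078), of 15 oligodendrocyte markers 6 (1582 to 3643, then 974 to 1576) and of 5 tested erythrocyte genes 4 (1674 to 3035, then 378 to 801). Dissociation response genes, 2 of 18 of them lower, summed to 6231 to 11101 CPM in batch 1 and 4449 to 5139 in batch 2, and microglia markers, with 0 of 14 called, to 5440 to 8056 and 4138.5 to 5424. None of these ranges overlapped between batches, and the part of these lists in the result was not tested. Per pan-neuronal read the members' median was -0.04, with 2 higher (0.0792% of all genes) and 5 lower (51.9%). The higher were Snap25 (0.62) and Syt1 (0.58), and the lower were Syn3 (-1.12), Unc13b (-0.75), Rims2 (-0.69), Rims1 (-0.56) and Vamp1 (-0.55).

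In astrocyte fractions several active zone genes were lower in batch 2. Rims1 (chr1:22356475-22845203 on GRCm39) had 896, 720 and 805 CPM in the vehicle, clozapine and risperidone pools of batch 1 and 143, 316 and 125 in those of batch 2, with no overlap and a log2 difference of -2.64 (SE 0.37, adjusted p = 6.4e-06). Rims2 (chr15:39061656-39547768) had 449, 391 and 425 CPM in batch 1 and 92.0, 180 and 108 in batch 2, again with no overlap, and differed by -2.25 (SE 0.33, adjusted p = 1.2e-05). Erc2 differed by -1.43 (SE 0.30, adjusted p = 0.0017), Unc13a by -1.05 (SE 0.31, adjusted p = 0.033), Stx1a by -0.95 (SE 0.27, adjusted p = 0.029) and the slow calcium sensor Syt7 by -0.91 (SE 0.29, adjusted p = 0.0499). These 6 were all the members called, with 3.6% of all genes lower, and the members' median was -0.42 against 0.14 over all genes. With library totals 3 members were lower and 2 higher, and the median became 0.04 against 0.59 over all genes. The share of all genes called with library totals is not given here. Calls changed with the library left out, and Rims1 ranged from -3.28 to -2.25 over these fits, which leave 1 residual degree of freedom. Of 18 dissociation response genes 12 were higher in batch 2, with a summed level of 1069 to 1640 CPM in batch 1 and 3273 to 3885 in batch 2. Oligodendrocyte markers summed to 27327 to 37474 CPM in batch 1 and 11349 to 14809 in batch 2, although 1 of 15 was called higher and 2 lower. Markers of oligodendrocyte precursors, 2 of 10 of them higher, summed to 439 to 536 CPM in batch 1 and 959 to 1045 in batch 2. Mural markers (195 to 212, then 255 to 309 CPM; 1 of 10 lower) and GABAergic markers (254 to 390.2, then 450.1 to 717; 1 of 12 higher) also summed to more in batch 2 without overlap. Of pan-neuronal markers 4 of 20 were lower, and their sums overlapped, at 4227 to 5300.1 CPM in batch 1 and 3740 to 6253 in batch 2. The part of these lists in the result was not tested.

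In neuron fractions most members were higher in batch 2 but few passed the test. Rab3a had 122, 140 and 101 CPM in batch 1 and 233, 255 and 227 in batch 2, a log2 difference of 1.19 (SE 0.22, adjusted p = 0.0495), and Syt2 differed by 1.30 (SE 0.24, adjusted p = 0.0495). These were the 2 called, with 0.137% of all genes higher, and the members' median was 0.68. DESeq2 called 22, of which 21 were higher and 1 lower, and the share of all genes it called is not given here. Calls changed with the library left out, in fits that leave 1 residual degree of freedom. Over these fits Rab3a ran from 1.01 to 1.44 and Syt2 from 1.12 to 1.67. Rims1 and Rims2 went the other way, at -0.38 (SE 0.29) and -0.64 (SE 0.24), without passing the test on this scale. Rims2 had 617, 749 and 501 CPM in batch 1 and 290, 423 and 326 in batch 2, with no overlap between these unscaled values. On the TMM scale its vehicle, clozapine and risperidone pools differed by -0.759, -0.783 and 0.059, and those of Rims1 by -0.68, -0.507 and 0.489. Neither was thus lower with risperidone on that scale. Only 1 member was lower in all 3 treatments, Unc13b (-0.262, -0.141 and -0.347). Per pan-neuronal read 5 of 33 members were lower in batch 2, a share no higher than the 18.8% of all genes called lower on that scale. They were the active zone or priming genes Rims2 (-1.33, SE 0.17, adjusted p = 0.00024), Rims1 (-1.07, SE 0.18, adjusted p = 0.0015), Unc13b (-1.08, SE 0.21, adjusted p = 0.0039), Erc2 (-0.62) and Unc13a (-0.52). On the same scale Rims1, Rims2 and Erc2 were lower in astrocyte fractions (-2.06, -1.68 and -0.86; 0.697% of all genes) and Syt11 and Sv2a higher (0.90 each; 4.28% of all genes). Rims1 and Rims2 were thus lower in batch 2 per pan-neuronal read in all 3 fractions, although on the TMM scale their microglia differences were above 0 (0.52 and 0.39, not called). The median over all genes between batches on the pan-neuronal scale was -1.13 in microglia, 0.70 in astrocyte and -0.78 in neuron fractions. In microglia fractions 51.9% of all genes were called lower on that scale, and Rims1 and Rims2 fell there by less than the median gene. Neuronal markers summed to more in batch 2 of the neuron fractions, with pan-neuronal sums of 7806 to 8780 CPM in batch 1 and 11217.5 to 11994 in batch 2 (0 of 20 called), glutamatergic sums of 4360 to 6935 and 7029 to 8546 (0 of 12 called) and GABAergic sums of 434 to 512 and 906 to 1030 (5 of 12 called, all higher). Oligodendrocyte markers summed to less in batch 2, in the ranges given at the start (0 of 15 called), and endothelial markers stood at 78.6 to 150 and 18.7 to 48.8 CPM (2 of 10 lower). None of these ranges overlapped between batches, and the part of these lists was not tested.

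**Figure D5:**
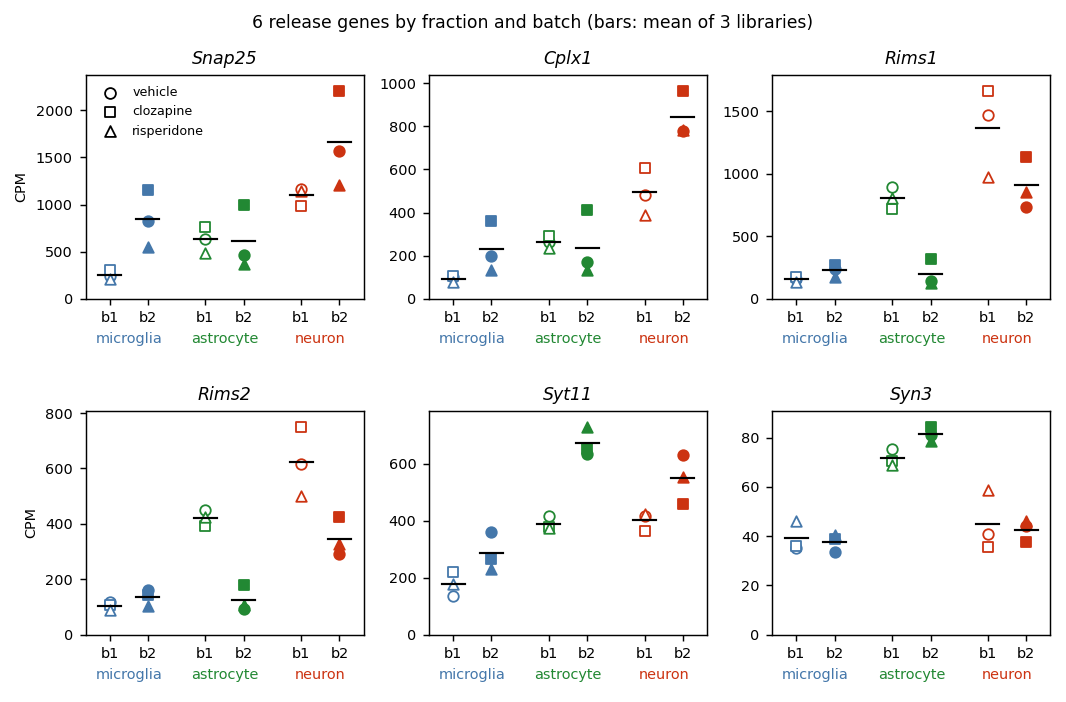
CPM of Snap25, Cplx1, Rims1, Rims2, Syt11 and Syn3 in each library by fraction and batch (b1 open, b2 filled; shape: treatment; bars: mean of 3 libraries). Snap25 is higher in batch 2 of the microglia fractions, Rims1 and Rims2 are lower in batch 2 of the astrocyte fractions, and Syn3 is highest in astrocyte fractions of both batches.

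Whether the batch difference itself depended on the fraction was tested with an added fit, chosen after the values were seen. The batch difference was lower in astrocyte than in microglia fractions for 28 members (4.79% of all genes called in either direction), with a median of -1.65. The 3 of smallest p were Rims1 (-3.17, SE 0.44, adjusted p = 0.00039), Rims2 (-2.67, SE 0.41, adjusted p = 0.00078) and Snap25 (-2.29, SE 0.39, adjusted p = 0.0014). Between neuron and astrocyte fractions it was higher for 23 members (16.6% of all genes), with a median of 1.38, led by Rims1 (2.42, SE 0.44, adjusted p = 0.0046), Cplx1 (1.99, SE 0.43, adjusted p = 0.0080) and Stx1a (1.57, SE 0.34, adjusted p = 0.0083). The first count was 7 without the vehicle pool of batch 2, and the second was 5 without either risperidone pool and 15 without the vehicle pool of batch 2. For those fits the share of all genes called is not given here. Between neuron and microglia fractions edgeR called 0 members (0.585% of all genes). A single member had an unadjusted p under 0.05, and Rims2 (-0.90), Snap25 (-0.75) and Syt4 (-0.68) had the smallest p. DESeq2 was not run on this comparison.

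Neither drug was accompanied by a called difference in any member. In each of the 9 comparisons (clozapine or risperidone against vehicle, and clozapine against risperidone, in 3 fractions) edgeR called 0 members and 0% of all genes (percent called 0 in every one), and DESeq2 called 0 members. Counts at an unadjusted p under 0.05 depended on whether batch was a term of the fit, and follow in the order clozapine against vehicle, risperidone against vehicle and clozapine against risperidone. In microglia fractions they were 0, 1 and 5 members without it (3.16, 4.29 and 7.39% of all genes) and 5, 19 and 23 members with it (5.6, 8.24 and 12.5% of all genes). In astrocyte fractions they were 2, 0 and 0 without it (1.26, 0.645 and 1.06%) and 10, 0 and 10 with it (4.84, 2.36 and 3.7%). In neuron fractions they were 0 in each without it (2.81, 0.801 and 3.25%) and 0, 1 and 1 with it (5.62, 2.42 and 7.48%). No adjusted p of a member passed in either fit. With 2 pools a group, the SE of a member's log2 difference was 0.31 to 0.55 among those named below. The drug comparisons within a fraction share their vehicle or risperidone libraries.

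In microglia fractions the risperidone pools held less of most members. The median was -0.54 with 32 of 33 members below 0, against 0.02 over all genes, and the medians within batch 1 and batch 2 were -0.45 and -0.67, with 30 members lower in both (30.9% of all genes). Rims2 (-0.72, SE 0.33, unadjusted p = 0.049), Erc2 (-0.74, SE 0.39) and Unc13a (-0.67, SE 0.37) had the smallest p, and no adjusted p was under 0.93. Rims2 had 116 and 163 CPM in vehicle, 106 and 143 in clozapine and 89.1 and 104 in risperidone pools (batch 1, then batch 2). Pan-neuronal markers moved alike, with a median of -0.50, and per pan-neuronal read the members' median was 0.06. Without the vehicle library of batch 2 the median was 0.08. Against risperidone, clozapine pools had a median of 0.72, with Cplx2 at 1.34 (SE 0.46), Cplx1 at 1.46 (SE 0.55) and Vamp2 at 1.02 (SE 0.41), and the smallest adjusted p was 0.67. Cplx1 stood at 101 and 196 CPM in vehicle, 103 and 360 in clozapine and 75.1 and 134 in risperidone pools, and the clozapine pool of batch 2 was the highest. Against vehicle, clozapine had a median of 0.17, with Cplx2 at 0.74 (SE 0.46), Vamp2 at 0.66 (SE 0.41) and Cplx1 at 0.75 (SE 0.54).

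In astrocyte fractions the clozapine pools had a median of 0.43 against vehicle, which was 0.03 within batch 1 and 1.083 within batch 2. Rab3a had 46.2 and 66.0 CPM in vehicle, 103 and 118 in clozapine and 79.6 and 58.8 in risperidone pools (batch 1, then batch 2). Its clozapine values were above all others, as were those of several other members, among them Snap25, Syn1 and Sh3gl2. The log2 difference of Rab3a against vehicle was 1.17 (SE 0.43, unadjusted p = 0.020, adjusted p = 1), and 1.199 and 1.185 within the batches. Sh3gl2 (0.98, SE 0.44) and Syn1 (0.95, SE 0.49) came next. Pan-neuronal markers had a median of 0.57 in the same comparison, and per pan-neuronal read the members' median was -0.05. Risperidone had a median of 0.05 against vehicle, with Rab3a at 0.54, Napb at -0.43 and Rab3c at -0.40, and clozapine had one of 0.38 against risperidone, with Napb at 1.05 (SE 0.48), Rab3c at 0.84 (SE 0.46) and Syn1 at 0.84 (SE 0.48).

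In neuron fractions, where the machinery was most abundant, the drug medians were 0.21 for clozapine against vehicle, 0.07 for risperidone against vehicle and 0.13 for clozapine against risperidone. The members of smallest p were Stx1a (0.46, SE 0.38), Rims2 (0.56, SE 0.48) and Sh3gl2 (0.49, SE 0.45) with clozapine, and Syt4 (0.48, SE 0.40), Syn3 (0.24, SE 0.31) and Unc13a (0.27, SE 0.41) with risperidone. Between the drugs they were Rims1 (0.81, SE 0.52), Rims2 (0.73, SE 0.48) and Vamp2 (0.57, SE 0.48). Rims1 stood at 1470 and 730 CPM in vehicle, 1663 and 1137 in clozapine and 976 and 856 in risperidone pools of batch 1 and batch 2. The vehicle pools alone spanned more than the gap between the drugs in batch 2. All adjusted p-values of members were 1.

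Tests of whether a drug's difference was unlike between fractions called 0 members in edgeR, with 0 at an unadjusted p under 0.05, and 0, 0, 0 and 0.00268% of all genes. Risperidone against vehicle was more positive in neuron than in microglia fractions for 33 of 33 members, with a median of 0.69 against 0.11 over all genes, led by Syt4 (1.21, SE 0.74), Unc13a (1.02, SE 0.79) and Erc2 (0.99, SE 0.83). That median was -0.03 without the neuron risperidone library of batch 2 and 0.00 without the microglia vehicle library of batch 2, and 0.04 per pan-neuronal read. The risperidone difference between neuron and astrocyte fractions had a median of 0.10, with Rab3a (-0.58), Rab3c (0.52) and Napb (0.51) of smallest p. For clozapine the medians were -0.05 against microglia, with Erc2 (0.58), Rims2 (0.63) and Cplx2 (-0.57), and -0.25 against astrocyte fractions, with Rab3a (-0.90), Sh3gl2 (-0.46) and Syt1 (-0.48). DESeq2 was not run on these 4 tests.

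A further 55 presynaptic genes that are no members, 54 of them tested, were mostly higher in neuron fractions too, with smaller medians than the members. Between neuron and microglia fractions 45 were higher (19.5% of all genes) and 5 lower (median 1.49). Between neuron and astrocyte fractions 42 were higher (10.1% of all genes) and 1 lower (median 1.04). The shares of all genes called lower are not given here. The 3 of smallest p against microglia were Snap23 (-1.83), the SNAP25 relative of non-neuronal cells, Sh3gl3 (2.53), an endophilin, and Unc13c (2.57), a Munc13. Against astrocyte fractions they were Rims4 (1.70), Syngr3 (1.36) and Doc2b (1.37). Between astrocyte and microglia fractions 7 of 54 were higher, against 7.96% of all genes, and 4 were lower. Sh3gl3 (2.40), Picalm (-1.89), a clathrin adaptor, and Snap23 (-1.39) had the smallest p there. Snap23 thus ran opposite to Snap25 in the comparison of neuron with microglia fractions.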

How the data were processed

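The authors deposited whole-number counts per gene, per the file headers made by featureCounts v2.0.8 over exons on GRCm39 with -p but no counting of read pairs, so both mates count, overlapping features allowed (-O) and no strand setting. FastQC is named in the submitters' processing notes. The name of the aligner was not given in the sources used here. Per the labels' protocols, libraries came from 20 ng of total RNA with ribosomal RNA depletion (QIAseq FastSelect), random hexamers and oligo-dT, and were read as paired ends on an Illumina NextSeq. Columns were matched to samples by library name, and 0 columns belonged to another sample.

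Genes passed filterByExpr, libraries were TMM-scaled, and edgeR 4.0.16 quasi-likelihood tests (R 4.3.3, limma 3.58.1) gave p-values adjusted by Benjamini-Hochberg over all genes, called under 0.05. SE is the absolute log2 difference over the square root of F. Fractions were fitted over 18 libraries with the pool as a block (10 residual degrees of freedom), drugs per fraction on treatment alone (3), batches per fraction on treatment and batch (2), and interactions on 9 group means (9). The scripts were tested on simulated counts. For clozapine against vehicle, 1 of 100 genes changed 2-fold was recovered in each fraction. Of 100 changed 4-fold, 68 were recovered in microglia, 17 in astrocyte and 48 in neuron fractions. Between neuron and microglia fractions 49 and 100 of 100 were recovered at 2-fold and 4-fold. Pools of 1 batch number share a label: batch differences of 2 treatments correlated at 0.234 to 0.668 over 19401 genes. The 2 libraries of a group had identical counts in 0.68 to 1.33% of genes, so none was a copy.

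The members and lists were chosen with earlier results of these data known. The text names every called member for drug, batch and drug interaction tests, otherwise the 3 of smallest p. It also names the 3 of smallest p for the batch by fraction tests, every uncalled member between fractions, and the first genes of marker lists. Alternatives were DESeq2 1.42.0, RLE, library totals, pan-neuronal scaling, no filter, other blocks and each library left out. Library totals, single batches, the batch by fraction test and leaving libraries out of interactions were added after values were seen.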

Additional observations from a re-analysis of the deposited data

Results flagged for a closer look

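Over 99 sets of 6 libraries (33 genes in 3 fractions), the gap of the highest or lowest library to its neighbour exceeded Dixon's critical value of 0.625 of the range in 2. This is a smaller share than the about 1 in 20 that chance gives among like libraries, and each set mixed treatments and batches. The 2 sets are given as descriptions only. Synj1, the phosphatase that uncoats endocytosed vesicles, stood at 266.4 CPM in the astrocyte fraction of the clozapine pool of batch 2, against 163.7 to 196 CPM in the other 5 astrocyte fractions. Stx1a stood at 224.3 CPM in the neuron fraction of the same pool, against 144.3 to 168.5 CPM in the other 5 neuron fractions.

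The difference between batches was unlike between fractions for 6 named values, each by a test of that difference (edgeR with the pool as a block). Between astrocyte and microglia fractions it was -3.174 on the log2 scale for Rims1, -2.667 for Rims2 and -2.289 for Snap25. Between neuron and astrocyte fractions it was 2.423 for Rims1, 1.99 for Cplx1 and 1.573 for Stx1a. These 6 were called whichever pool was left out. Per pan-neuronal read, Rims1 (-1.52), Rims2 (-1.01) and Snap25 (-0.66) were still called in the first comparison and Rims1 (1.00) in the second.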

How the results depend on the processing

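With 2 pools a group and a biological coefficient of variation of 0.356 to 0.499 within fractions, the number of pools limits the precision of the drug comparisons, and calls between fractions depended on the scaling. Over all genes the median difference between neuron and microglia fractions was -0.63 with TMM, -0.82 with RLE, -1.15 with library totals and -2.57 with pan-neuronal scaling. The causes of the changes below were not tested. Counts of called members below are given without the share of all genes called in those fits. They show how far calls moved with the setting and are not results about the members.

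Between neuron and microglia fractions 13 members were called with pan-neuronal scaling and 4 in the vehicle libraries alone. Between neuron and astrocyte fractions these counts were 4 and 0. Between astrocyte and microglia fractions 6 were called without a filter, 1 with pan-neuronal scaling, 4 without the replicate block, 7 with DESeq2, 0 in vehicle libraries, 7 with library totals, 29 in batch 1 and 2 to 8 with a pool left out. Between batches of microglia fractions pan-neuronal scaling called 7. Between batches of astrocyte fractions 3 were called without the treatment term, 10 by DESeq2 and 0 to 19 with a library left out. Between batches of neuron fractions 6 were called with library totals, 10 without a filter, 5 with pan-neuronal scaling, 22 by DESeq2 and 0 to 17 with a library left out. The batch by fraction counts were 7 with pan-neuronal scaling and 7 to 28 with a pool left out (astrocyte minus microglia), 7 with library totals, 6 with pan-neuronal scaling and 5 to 28 with a pool left out (neuron minus astrocyte), and 2 with library totals (neuron minus microglia).

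With pan-neuronal scaling neuron minus microglia turned negative for Syt5 (-0.10), Sh3gl2 (-0.015), Syn2 (-0.15), Sv2a (-0.23), Syt4 (-0.28), Vamp1 (-0.58), Synj1 (-0.17), Syt11 (-0.38), Rab3a (-0.002), Stx1a (-0.021), Sv2b (-0.15), Syt7 (-0.19), Nsf (-0.16), Dnm1 (-0.20), Syt1 (-0.039), Sv2c (-0.62), Erc2 (-0.20), Unc13a (-0.51), Syn3 (-1.29), Syt2 (-1.23) and Unc13b (-1.41). Neuron minus astrocyte turned negative for Sv2c (-0.18), Syn2 (-0.088), Vamp1 (-0.35), Synj1 (-0.068), Sv2b (-0.057), Syp (-0.014), Syt7 (-0.089), Sv2a (-0.41), Vamp2 (-0.20), Unc13a (-0.15), Erc2 (-0.059), Syt2 (-0.81), Rims2 (-0.07), Unc13b (-0.93) and Syt11 (-1.25). Library totals gave -0.019 for Unc13b in the former and -0.136 for Syt11 in the latter. Batch 2 minus batch 1 in microglia fractions turned negative for Syn2 (-0.064), Stx1a (-0.044), Pclo (-0.089), Synj1 (-0.12), Bsn (-0.23), Syt7 (-0.30), Cplx2 (-0.21), Erc2 (-0.34), Syt2 (-0.19) and Vamp2 (-0.33), all called with TMM, and for Rims1 (-0.56), Rims2 (-0.69), Syt11 (-0.38), Unc13a (-0.47), Unc13b (-0.75) and Vamp1 (-0.55), which were not.

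With a library left out, clozapine minus vehicle in microglia fractions ran from -0.293 to 1.33 for Cplx2, -0.096 to 1.148 for Vamp2 and -0.534 to 1.413 for Cplx1. Risperidone minus vehicle in astrocyte fractions ran from -0.161 to 1.03 for Rab3a, -0.912 to 0.26 for Napb and -0.951 to 0.137 for Rab3c. The clozapine interactions ran from -1.158 to 0.527 for Cplx2 and -1.088 to 0.259 for Syt1, and the risperidone interactions with astrocyte fractions from -1.919 to 0.119 for Rab3a, -0.457 to 1.024 for Rab3c and -0.32 to 0.912 for Napb.

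With batch as a replicate block the drug comparisons still called 0 members, while more members had an unadjusted p under 0.05 in 7 of 9, as given above. Interactions with a pool block called 0 members. The block changed no other call of members in these tests.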
